A study of Mus musculus with 12 samples.

Results

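The values of 10 genes of the skeletal muscle sarcomere and its differentiation were taken from a study of the embryonic mouse pancreas without β-catenin. The genes are Myh3, Myh8, Myl1, Mylpf, Acta1, Actc1, Tnnt1, Tnnt3, Tnnc2 and Myog. Every probe set that carries one of these as its only symbol was used, which gave 1 probe set for each gene, so 10 of 18193 genes with a name and 10 probe sets of 45101 on the array and of 45037 after its control probe sets were left out. The genes were singled out because Myh8 was high in KO pancreata at E14.5, so their values at E14.5 are given as a description without a test, and only E16.5, which that rule did not use, was tested.

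Pancreata of 12 mouse embryos had been profiled, each on 1 Affymetrix MOE430 2.0 array. There were 4 β-catenin KO and 2 wildtype pancreata at E14.5, and 4 KO and 2 wildtype pancreata at E16.5. The KO embryos were Pdx1Cre/+; beta-catenin flox/flox, and the wildtype embryos came from the same intercross of Pdx1Cre/+; beta-catenin flox/+ mice, and whether they carried Cre is not given in the sources used here. The earlier day is E14.6 in the deposited description but E14.5 in the array names and the paper, and E14.5 is used here. Cre in this line is driven by the Pdx1 promoter, which is active in pancreatic epithelium, and whether it deletes β-catenin in muscle lineages was not tested. Pancreata are named below by genotype and the rest of their array name, and no source used here says what the number in that name stands for. The deposited unit is a ratio to the mean of both wildtype arrays of the same day, so 1 is the wildtype mean and the 2 wildtype values of a day always sum to 2. How much of a transcript a pancreas held, and whether it changed between the days, is not in such values, and for the same reason the labelled tissue could not be checked against the level of pancreatic markers. In whole organs, fewer cells of a type and less RNA per cell cannot be told apart.

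Skeletal muscle contracts when myosin heads in the thick filament pull on the actin of the thin filament, and troponin on the thin filament opens the myosin sites when calcium rises. Developing muscle uses its own set of these proteins before the adult ones: Myh3 encodes the embryonic and Myh8 the perinatal myosin heavy chain, and Actc1, the cardiac actin, is also the main actin of young skeletal fibres. These genes are switched on by myogenic basic helix-loop-helix factors, of which myogenin, the product of Myog, drives the fusion and differentiation of myoblasts. The pancreas itself has no skeletal muscle, and a dissected organ can carry adjoining tissue.

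Myh8 stood apart from the other 9 genes. At E14.5 its ratio in KO_540C was 17.6, that in KO_540G 5.35, that in KO_615A 5.63 and that in KO_615B 6.65, against 1.32 in WT_522B and 0.683 in WT_522C. The lowest KO pancreas was therefore well above the higher wildtype one, and the 17.6 of KO_540C was the highest ratio of any probe set on the 4 KO arrays of that day. The KO mean ratio was 8.80 ± 5.88 (SD, n = 4), and the mean log2 difference between KO and wildtype of 3.02 was number 3 of 45037 from the top. The wildtype pair was itself far apart on this probe set, by 0.95 on the log2 scale against a median of 0.11 over all probe sets.

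At E16.5 the ratio of Myh8 was 1.41 in KO_541J, 5.34 in KO_541L, 1.63 in KO_591C and 0.988 in KO_591D, against 1.23 in WT_622A and 0.772 in WT_628G. KO_591D lay between the 2 wildtype pancreata, and KO_541L alone was of the size seen at E14.5. The log2 difference was 0.94 with a standard error of 0.62 and a 95% interval of -0.42 to 2.30, which did not pass the limit of 0.05 (limma, adjusted p = 0.521). Without KO_541L it was 0.43. The interval reaches from a slightly lower to a clearly higher level in KO.

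**Figure D1:**
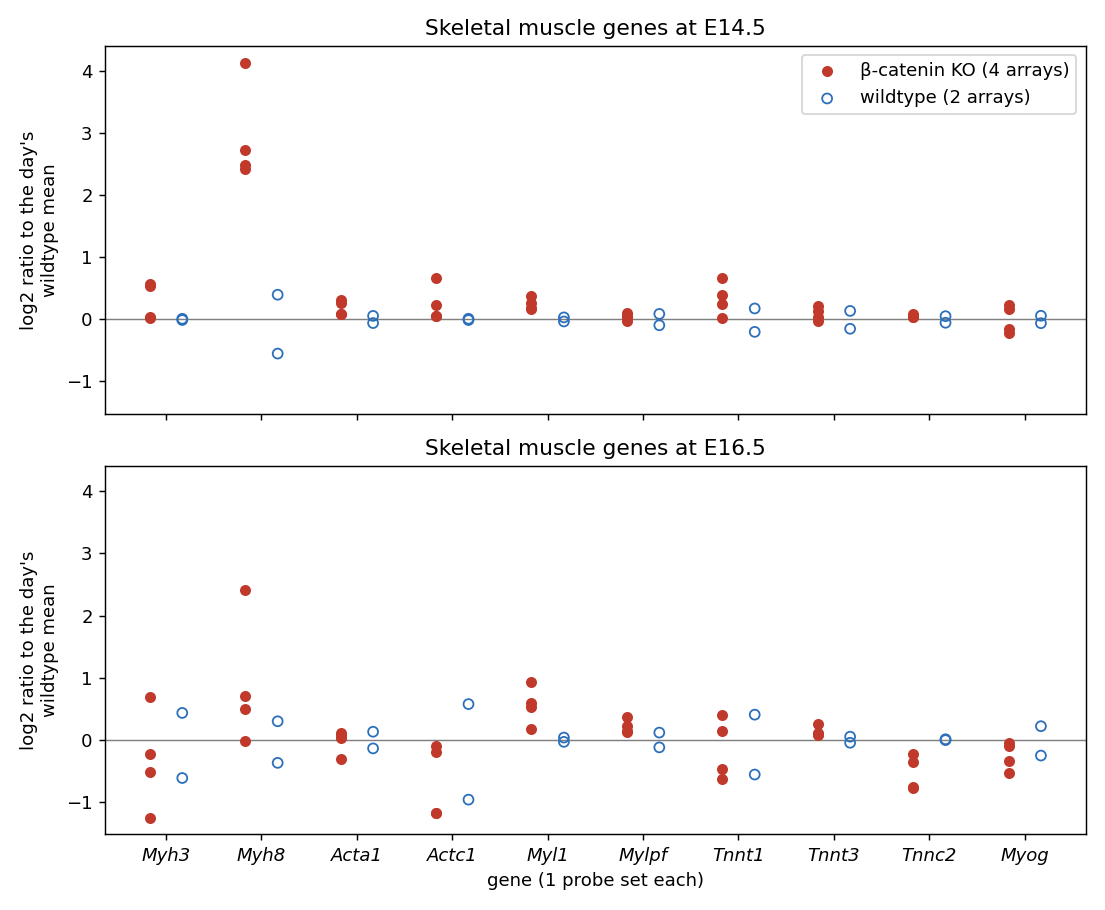
Log2 ratio to the wildtype mean of the same day (vertical axis) for each of the 10 genes (horizontal axis) at E14.5 (upper panel) and E16.5 (lower panel). Filled points are single KO pancreata (4 a day) and open points single wildtype pancreata (2 a day). Myh8 at E14.5 lies far above all other genes, and at E16.5 only KO_541L, at a ratio of 5.34, does so.

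Myh8 and Myh3 belong to one cluster of skeletal myosin heavy chain genes on chromosome 11, in the order Myh3, Myh2, Myh1, Myh4, Myh8 and Myh13. In the GRCm38.p6 assembly Myh3 lies at chr11:67078273-67102291, Myh4 at chr11:67237812-67260447 and Myh8 at chr11:67277124-67308634. Myh2, Myh1 and Myh4 encode the fast myosins of adult fibres, and Myh13 one of the eye muscles. The RefSeq promoters of Myh8, of its neighbour Myh4 and of the embryonic gene Myh3 follow, 5′ to 3′ on the plus strand, to set the gene that stood apart beside 2 of its cluster that did not. Capitals mark the E box CANNTG, the letters that myogenic factors bind, and the A/T-rich motif of the MEF2 factors, which act with them.
Myh8, chr11:67276874-67277173: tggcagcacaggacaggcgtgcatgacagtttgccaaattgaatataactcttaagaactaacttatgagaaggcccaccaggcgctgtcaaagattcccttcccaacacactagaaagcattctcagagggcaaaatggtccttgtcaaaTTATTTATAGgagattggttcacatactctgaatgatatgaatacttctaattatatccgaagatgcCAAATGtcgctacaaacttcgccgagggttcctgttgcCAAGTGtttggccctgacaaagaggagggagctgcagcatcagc
Myh4, chr11:67237562-67237861: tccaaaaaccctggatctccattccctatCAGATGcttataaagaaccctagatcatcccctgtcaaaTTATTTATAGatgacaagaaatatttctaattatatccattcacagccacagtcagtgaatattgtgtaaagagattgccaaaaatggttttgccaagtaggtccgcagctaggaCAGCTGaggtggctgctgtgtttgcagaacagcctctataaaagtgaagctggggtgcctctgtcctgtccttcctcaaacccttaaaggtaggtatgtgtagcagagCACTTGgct
Myh3, chr11:67078050-67078349: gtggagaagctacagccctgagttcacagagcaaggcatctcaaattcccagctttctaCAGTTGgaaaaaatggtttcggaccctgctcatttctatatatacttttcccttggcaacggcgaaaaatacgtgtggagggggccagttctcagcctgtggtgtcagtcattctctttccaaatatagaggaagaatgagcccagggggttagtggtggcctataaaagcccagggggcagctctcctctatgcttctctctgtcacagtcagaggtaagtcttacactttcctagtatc

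Myh8 and Myh4 held the same MEF2 match of 10 letters, TTATTTATAG, at positions -99 to -90 of Myh8 and -182 to -173 of Myh4, where the annotated start is position 1. Among the 9 of 10 genes with a promoter entry, Myh8 was the only one with a MEF2 match, which 3.19% of 32851 mouse promoters of this length hold. An E box was found in 9 of 9, and in 72.3% of all promoters. The CArG box, which serum response factor binds, was found in both actin genes, Acta1 and Actc1, and in 1.63% of all promoters. Both strands were searched, and none of the matches named here in the printed promoters overlaps another of them. These matches describe letters only, since nothing was measured at the promoters.

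The neighbours of Myh8 were near the wildtype mean at E14.5. The Myh2 ratio was 0.964, 1.23, 1.07 and 1.15 in KO_540C, KO_540G, KO_615A and KO_615B, against 1.02 in WT_522B and 0.981 in WT_522C. Both probe sets of Myh4 lay between 0.895 and 1.15 in the same 4 KO pancreata, against 0.95 to 1.05 in the wildtype ones. Myh1 has 3 probe sets, and they disagreed. One of them, the one chosen for the gene by its name, lay between 0.975 and 1.14 in KO, against 0.95 and 1.05 in wildtype. The second was at 1.36, 1.22, 1.27 and 1.35 in KO, against 1.04 and 0.959 in wildtype, and the third, of a type that can read related transcripts, was at 1.54, 1.43, 1.42 and 1.55 in KO, against 1.21 and 0.787 in wildtype. Over the 12 arrays the log2 ratios of these 2 correlated with those of Myh8 with r = 0.74 and r = 0.85. Parts of the cluster's genes are nearly identical in sequence, and their assignment to probe sets rests on the platform annotation. The paper lists a skeletal myosin heavy chain under the name of Myh4, with a fold change of 8.8 at E14.5. The KO mean ratio of that day was 8.80 for the Myh8 probe set and 1.05 and 1.04 for the Myh4 probe sets. The paper's value thus matches the probe set called Myh8 here, and the name Myh8 holds only as far as the annotation used here does. No probe set was assigned to Myh13.

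**Figure D2:**
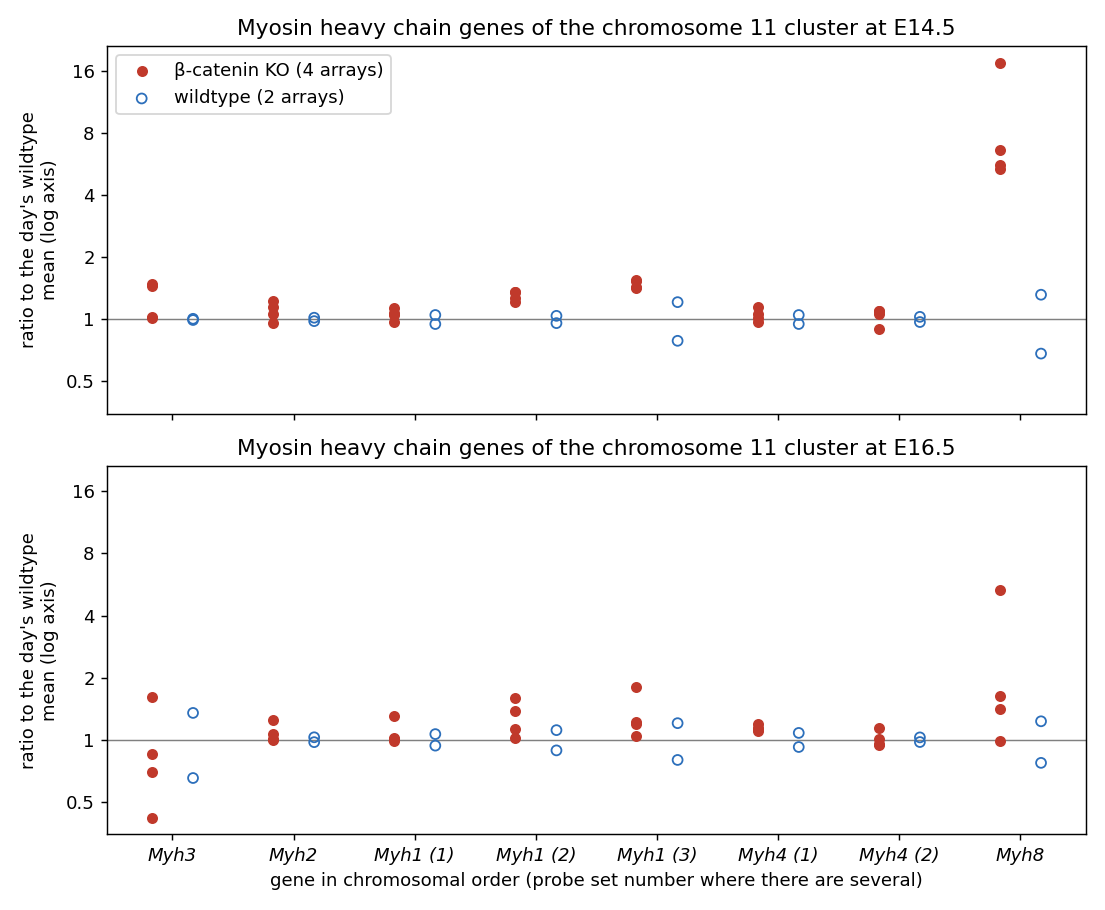
Ratio to the wildtype mean of the same day (vertical log axis) for the probe sets of the chromosome 11 myosin heavy chain cluster in chromosomal order (horizontal axis), at E14.5 (upper panel) and E16.5 (lower panel). Filled points are the 4 KO and open points the 2 wildtype pancreata of a day. At E14.5 the 4 KO values of Myh8 lie between 5.35 and 17.6, and no other probe set of the cluster exceeds 1.55 in a KO pancreas.

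Myh3, the embryonic myosin heavy chain, was only slightly above wildtype at E14.5. It was at 1.48 and 1.45 in KO_540C and KO_615A and at 1.02 and 1.03 in KO_540G and KO_615B, against 1.01 in WT_522B and 0.993 in WT_522C. The groups did not overlap, but KO_540G and KO_615B were within a few percent of the wildtype pair. At E16.5 it was 0.855 in KO_541J, 1.61 in KO_541L, 0.419 in KO_591C and 0.701 in KO_591D, against 1.35 in WT_622A and 0.652 in WT_628G. The KO values lay on both sides of the wildtype pair, and the log2 difference of -0.23 did not pass the limit (95% interval -1.17 to 0.70, limma, adjusted p = 0.867).

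Of the light chains, Myl1 encodes the essential light chain of fast fibres and Mylpf the regulatory one. Myl1 was at 1.30, 1.13, 1.12 and 1.20 in KO_540C, KO_540G, KO_615A and KO_615B, against 1.02 in WT_522B and 0.977 in WT_522C. At E16.5 it was at 1.91 in KO_541J, 1.5 in KO_541L, 1.44 in KO_591C and 1.13 in KO_591D, against 1.02 in WT_622A and 0.976 in WT_628G. Every KO pancreas of both days thus exceeded both wildtype pancreata of its day. The log2 difference at E16.5 was 0.55 with a standard error of 0.16 (95% interval 0.20 to 0.91), and it did not pass the limit after adjustment over all probe sets (limma, adjusted p = 0.0979). It passed without KO_591D, with a log2 difference of 0.68 and an adjusted p of 0.0129, and with array weights (limma, adjusted p = 0.0366). Over all alternatives its adjusted p ran from 0.0129 to 0.592.

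Mylpf lay between 0.986 and 1.08 in the KO pancreata of E14.5, against 1.06 in WT_522B and 0.937 in WT_522C, and the groups overlapped. At E16.5 it was at 1.1, 1.09, 1.28 and 1.17 in KO_541J, KO_541L, KO_591C and KO_591D, against 1.08 in WT_622A and 0.918 in WT_628G. KO_541J and KO_541L were barely above WT_622A, and the log2 difference of 0.22 did not pass the limit (limma, adjusted p = 0.347) and was 0.33 without WT_622A and 0.10 without WT_628G.

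The actins differed little at E14.5. Acta1, the skeletal α-actin, was at 1.06, 1.06, 1.20 and 1.25 in KO_540C, KO_540G, KO_615A and KO_615B, against 0.960 in WT_522B and 1.04 in WT_522C. Actc1 was at 1.59, 1.04, 1.17 and 1.04 in the same KO pancreata, against 1.01 in WT_522B and 0.993 in WT_522C. Neither gene overlapped between the groups, although 2 of the 4 KO values of each were within a few percent of the higher wildtype value.

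At E16.5 Actc1 was at 0.929 in KO_541J, 0.869 in KO_541L, 0.441 in KO_591C and 0.443 in KO_591D, against 1.49 in WT_622A and 0.512 in WT_628G. All 4 KO pancreata were below the wildtype mean, but the wildtype pair spanned nearly the whole range of the day, so the groups overlapped. The log2 difference was -0.47 (95% interval -1.36 to 0.42, limma, adjusted p = 0.656), and it turned to 0.30 without WT_622A and was -1.24 without WT_628G. Acta1 lay between 0.803 and 1.08 in KO, against 1.09 in WT_622A and 0.907 in WT_628G, with a log2 difference of -0.02 (limma, adjusted p = 0.974).

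The troponin genes split. Tnnt1, troponin T of slow fibres, was at 1.31, 1.02, 1.18 and 1.58 in KO_540C, KO_540G, KO_615A and KO_615B, against 1.13 in WT_522B and 0.870 in WT_522C, so KO_540G lay within the wildtype pair. At E16.5 it was at 1.1, 1.32, 0.724 and 0.646 in KO_541J, KO_541L, KO_591C and KO_591D, against 1.32 in WT_622A and 0.678 in WT_628G, which is nearly the span of the KO values (log2 difference -0.06, limma, adjusted p = 0.963). Tnnt3, troponin T of fast fibres, stayed within 0.979 to 1.20 in all 8 KO pancreata, against 0.901 to 1.1 in the 4 wildtype ones. At E16.5 its 4 KO values exceeded both wildtype values, by a log2 difference of 0.13 that did not pass the limit (limma, adjusted p = 0.633).

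Tnnc2, the calcium-binding troponin C of fast fibres, was at 1.03, 1.04, 1.03 and 1.06 in the KO pancreata of E14.5, against 0.963 in WT_522B and 1.04 in WT_522C. At E16.5 it was at 0.783 in KO_541J, 0.848 in KO_541L, 0.593 in KO_591C and 0.582 in KO_591D, against 0.995 in WT_622A and 1 in WT_628G. It was the only one of the 10 genes with all 4 KO pancreata of a day below both wildtype pancreata. The log2 difference of -0.53 with a standard error of 0.14 (95% interval -0.85 to -0.22) did not pass the limit after adjustment (limma, adjusted p = 0.0779). It passed without KO_541L, with a log2 difference of -0.63 and an adjusted p of 0.0487, and over all alternatives the adjusted p ran from 0.0487 to 0.429.

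Myog, the gene of myogenin, lay near wildtype at E14.5. At E14.5 it was at 0.896, 1.17, 1.12 and 0.857 in KO_540C, KO_540G, KO_615A and KO_615B, against 0.959 in WT_522B and 1.04 in WT_522C, with KO values on both sides of wildtype. KO_540C, the pancreas with the highest Myh8 ratio, was among the lower ones. At E16.5 it lay between 0.686 and 0.967 in KO, against 1.16 in WT_622A and 0.837 in WT_628G, with a log2 difference of -0.24 (limma, adjusted p = 0.592) that was -0.004 without WT_622A and -0.48 without WT_628G. KO_541L had the highest KO value of the day in both Myog and Myh8, and over the 8 KO arrays their log2 ratios correlated with r = 0.46, against 0.16 over all 12. The other myogenic factors Myod1 and Myf5 lay between 0.868 and 1.14 in the KO pancreata of E14.5, against 0.982 to 1.02 in the wildtype ones.

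Over the 10 genes, all had a higher mean log2 ratio in KO than in wildtype at E14.5, as did 55.4% of all probe sets, and for 5 (Myh8, Myh3, Acta1, Actc1 and Myl1) all 4 KO pancreata exceeded both wildtype pancreata, as did 8.17% of all probe sets. For 0 of the 10 all 4 KO pancreata lay below both, against 8.06% of all probe sets. This day chose the genes, and the count also depended on how arrays were scaled: it was 1 after quantile normalization and 2 after each array was centred on its median, and in both cases Myog lost its higher mean. The median log2 difference of the 10 genes was 0.22 against 0.02 over all probe sets. Without Myh8 the 9 others had a median of 0.19 and ran from 0.003 to 0.34, and none of their KO ratios exceeded 1.59.

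At E16.5, 0 of the 10 genes passed the limit in limma, against 2.62% of all probe sets, of which 0.802% were higher and 1.82% lower in KO. At an unadjusted p under 0.05 there were 2, Myl1 and Tnnc2, against 16.6% of all probe sets. The methods' t-test called 0 of all 45037 probe sets after adjustment, so it says nothing of these 10. All 4 KO pancreata exceeded both wildtype pancreata for 3 genes, Myl1, Mylpf and Tnnt3, against 14.5% of all probe sets, and lay below them for 1, Tnnc2, against 11.1%. The number of all probe sets past the limit, 1182, itself changed with the setting, to 404 without KO_541J, 2862 without KO_591D and 71 after quantile normalization. The median log2 difference was -0.04 for the 10 genes and 0.03 over all probe sets. That median rested on which wildtype pancreas was used: it was 0.30 without WT_622A and -0.32 without WT_628G. The limma p-values rest on the spread within the 4 groups of both days, which the fit pools, with 2 wildtype pancreata a day.

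**Figure D3:**
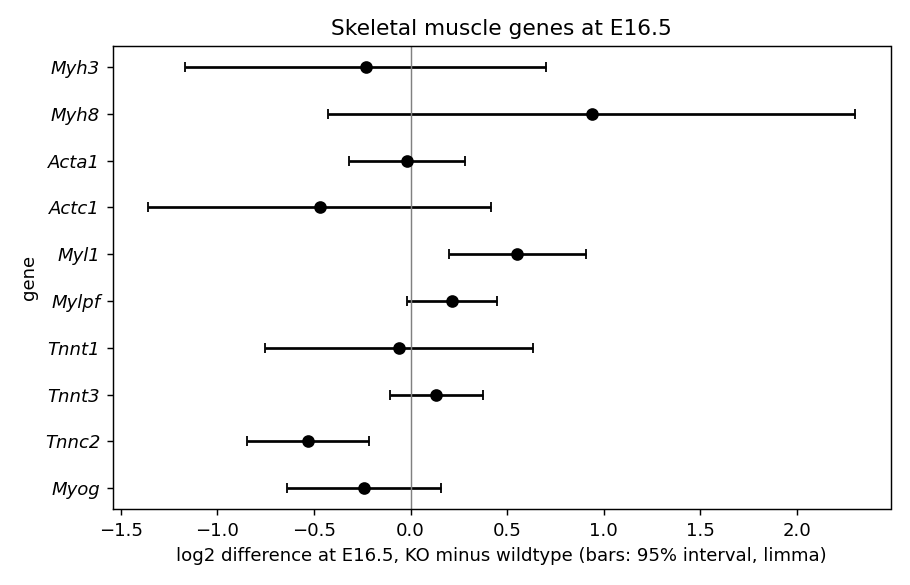
Log2 difference at E16.5 between KO (n = 4) and wildtype (n = 2) pancreata (horizontal axis) for the 10 genes (vertical axis). Points are limma estimates and bars their 95% intervals, before any adjustment over probe sets. The intervals of Myl1 (0.20 to 0.91) and Tnnc2 (-0.85 to -0.22) leave out 0, and that of Myh8 is the widest.

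The 10 genes did not vary as one group over the 12 arrays. Among their 45 pairs the median correlation of log2 ratios was 0.29, with 19 pairs over 0.5 and 15 below 0. These are descriptions over 12 arrays, in which each wildtype pair is tied to its own mean. Myh3 and Actc1 (r = 0.84), Actc1 and Tnnt1 (r = 0.84) and Myh3 and Tnnt1 (r = 0.79) were the pairs with the highest correlation, and pairs such as Actc1 and Tnnc2 (0.75), Actc1 and Myog (0.74) and Myh3 and Acta1 (0.74) were not far below. In the wildtype pair of E16.5, 9 of the 10 genes were higher in WT_622A than in WT_628G, as were 49.9% of all probe sets, and the exception was Tnnc2. Mylpf and Tnnc2 ran against each other (r = -0.81). With Myh8, the correlation was highest for Tnnt1 (0.66), Myh3 (0.57) and Actc1 (0.52), and lowest for Tnnt3 (0.13) and Mylpf (0.06), and even for Tnnt1 919 probe sets of the array correlated better. Over the 8 KO arrays alone the order differed: Tnnc2 was at 0.85, Actc1 at 0.85, Tnnt1 at 0.77, Myh3 at 0.75, Tnnt3 at -0.60 and Mylpf at -0.62. Those arrays span both days, each with its own wildtype mean, so these r also hold the difference between days. Tnnc2 hardly varied among the E14.5 KO pancreata (SD 0.02 on the log2 scale), where Myh8 ran from 5.35 to 17.6.

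Single pancreata differed at E16.5. The median ratio of the 9 genes other than Myh8 was 1.06 in KO_541J, 1.06 in KO_541L, 0.724 in KO_591C and 0.785 in KO_591D, against 1.09 in WT_622A and 0.907 in WT_628G. KO_591C and KO_591D, which share a number in their names, were thus the lowest of the day, and over all probe sets their medians were 1 and 1.04. The wildtype pair differed by a median of 0.37 on the log2 scale over the 10 genes, against 0.15 over all probe sets. At E14.5 the pair differed by 0.12 and 0.11.

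Myh8 was chosen for its high KO values at E14.5, and those arrays are among the 12. An r with Myh8 over the 12 arrays therefore favours genes that were also high there, and this holds for every such r given here. The 6 genes outside the muscle lists whose log2 ratios were most like those of Myh8 over the 12 arrays had r between 0.92 and 0.96 and rank correlations between 0.84 and 0.95. They were Vstm4, Ppp1r3c, which targets a phosphatase to glycogen, the transcription factor gene Nfib, Cpa3, the mast cell carboxypeptidase, Hdc, which makes histamine, and Extl2, a glycosyltransferase. Cpa3 was at 5.97, 7.75, 5.42 and 5.05 in KO_540C, KO_540G, KO_615A and KO_615B, against 1.22 in WT_522B and 0.782 in WT_522C. At E16.5 it was at 1.82, 3.62, 1.43 and 0.948 in KO_541J, KO_541L, KO_591C and KO_591D, against 1.02 in WT_622A and 0.983 in WT_628G. The order of the E16.5 KO pancreata was close to that of Myh8, with KO_541L first and KO_591D last in both, while at E14.5 KO_540C led for Myh8 and KO_540G for Cpa3. The 6 most like the mean of the 10 genes were Pappa, Slc9a3r1, Rbpj, Sec14l1, Slc27a4 and Stom, with r between 0.91 and 0.95. That mean includes Myh8 and the E14.5 arrays, so the same limit holds for it. The 10 genes themselves correlated with it from -0.15 for Mylpf to 0.89 for Tnnt1, with Myh8 at 0.87.

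**Figure D4:**
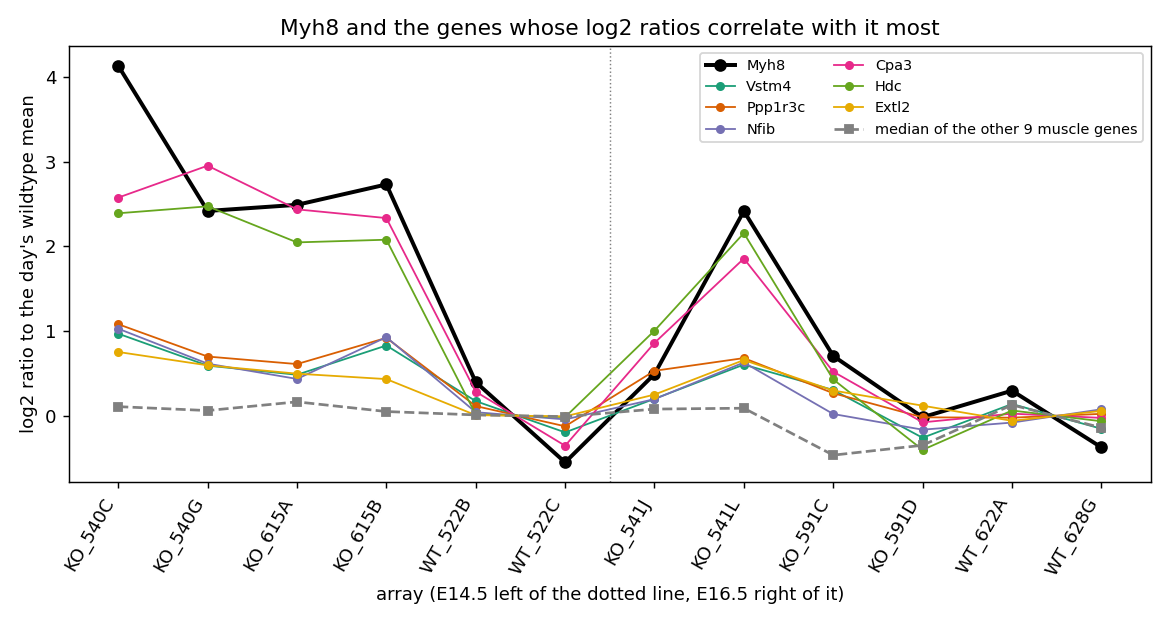
Log2 ratio to the wildtype mean of the same day (vertical axis) on each of the 12 arrays (horizontal axis) for Myh8, for the 6 genes with the highest correlation with it and for the median of the other 9 muscle genes. Lines join the values of 1 gene and show no course between arrays. Cpa3 and Hdc share with Myh8 the high level of the E14.5 KO pancreata and of KO_541L, and the median of the other muscle genes stays near 0 at E14.5.

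Most of the wider set of skeletal muscle genes lay near wildtype on the probe set chosen by name. Of 88 further genes in 5 lists (other myosins, thin filament, thick filament with M line and Z disc, excitation-contraction and energy, myogenic factors and myoblasts), 84 were measured. At E14.5 their median log2 difference was 0.05, from -0.28 for Casq2, the calcium store protein of slow and cardiac muscle, to 0.29 for Pfkm, the muscle phosphofructokinase. A difference of 0.3 or more was found for 0 of the 84, against 5.2% of all probe sets, and all 4 KO pancreata exceeded both wildtype pancreata for 4, against 8.17% of all probe sets. Over all 158 probe sets of these genes, 6 reached a difference of 0.3 at E14.5, and they belonged to Myh1, Tpm2 and Mef2c. Tpm2, which encodes β-tropomyosin and is also expressed in smooth muscle, had 3 such probe sets, at 0.87, 1.10 and 0.77, and is named here after its values were seen. The one with the widest difference was at 2.21, 1.80, 1.59 and 2.70 in KO_540C, KO_540G, KO_615A and KO_615B, against 1.31 in WT_522B and 0.687 in WT_522C. The same 3 probe sets were at 1.25, 1.35 and 0.92 at E16.5, with 5.16 in KO_541J as the highest ratio, and did not pass the limit (limma, adjusted p of 0.119, 0.155 and 0.235). The probe set chosen for Tpm2 by name had a difference of 0.01 at E14.5 and of -0.04 at E16.5. Ckm, the muscle creatine kinase, was at 0.943, 1.13, 1.04 and 1 in KO_540C, KO_540G, KO_615A and KO_615B, against 0.885 in WT_522B and 1.12 in WT_522C.

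At E16.5 the median of the 84 genes was 0.06, and 0 passed the limit in limma, against 2.62% of all probe sets, with 8 at an unadjusted p under 0.05, against 16.6%. A difference of 0.3 or more was found for 7, which is 8.33% against 11% of all probe sets. Over all 158 probe sets of these genes it was found for 20, which is 12.7%. On the probe sets chosen by name, Mef2c had the highest value at 0.61. It encodes one of the MEF2 factors, which other cell types also express, and had ratios of 1.55, 2.08, 1.57 and 1.04 in KO_541J, KO_541L, KO_591C and KO_591D, against 0.908 in WT_622A and 1.09 in WT_628G. Pgam2, the muscle phosphoglycerate mutase, had the lowest at -0.72, with ratios of 0.555, 0.478, 0.516 and 0.984 in the same KO pancreata, against 0.906 in WT_622A and 1.09 in WT_628G. In both genes KO_591D lay within the wildtype pair. Chosen after their values were seen, 2 further probe sets of the Z disc gene Ldb3 fell in KO at E16.5, by 1.03 and 0.62 on the log2 scale, and both passed the limit (limma, adjusted p of 0.0332 and 0.0352), while the probe set chosen for the gene had a difference of 0.17.

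**Figure D5:**
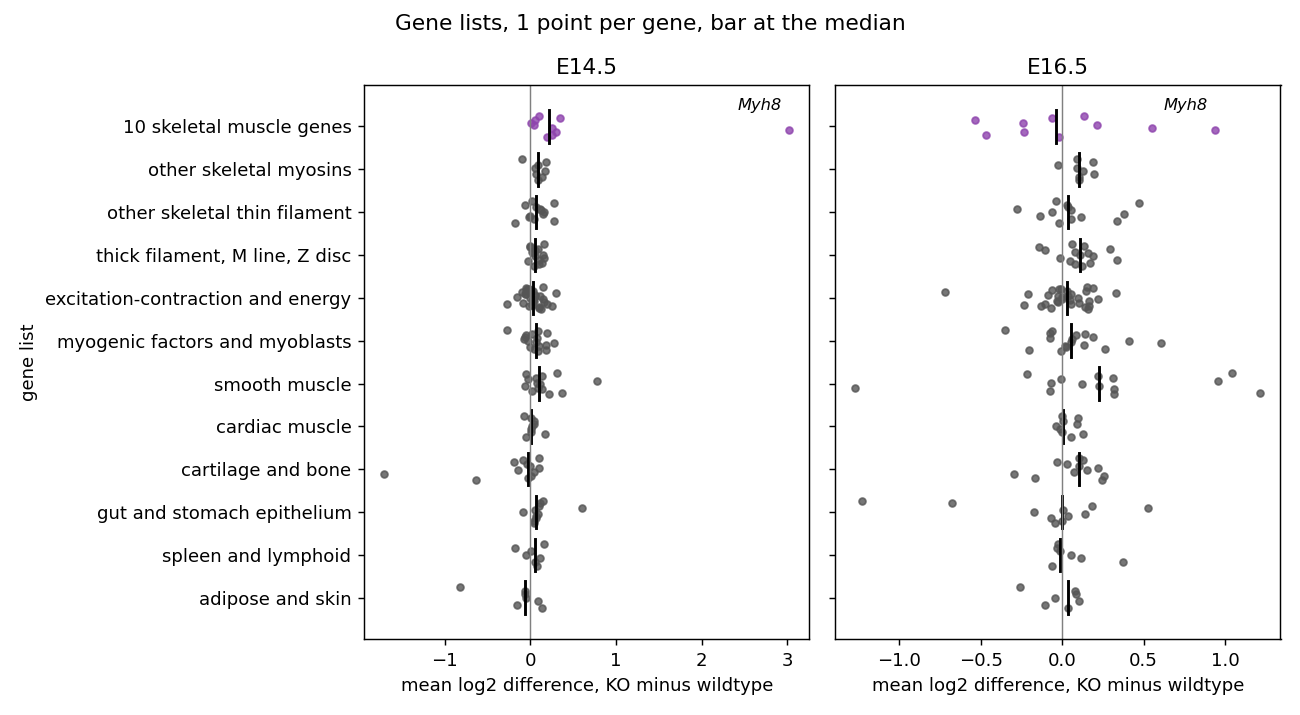
Mean log2 difference between KO and wildtype pancreata (horizontal axes) at E14.5 (left panel) and E16.5 (right panel), with 1 point per gene and 1 row per gene list, and a bar at the median of each list. The horizontal ranges differ. Myh8 at E14.5, at 3.02, lies far to the right of every other gene shown, and the 5 other skeletal lists have medians between 0.03 and 0.11 on both days.

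Genes of other tissues were read beside these. Of 14 measured smooth muscle genes, 3 had a log2 difference of 0.3 or more at E14.5, Myl9 at 0.78, Actg2 at 0.37 and Tagln at 0.31, against 5.2% of all probe sets, and all 4 KO pancreata exceeded both wildtype pancreata for 4, against 8.17%. At E16.5 Actg2, the enteric γ-actin, was at 8.95 in KO_541J, 1.70 in KO_541L, 1.54 in KO_591C and 1.24 in KO_591D, against 0.959 in WT_622A and 1.04 in WT_628G. Its highest KO pancreas was KO_541J, and that of Myh8 was KO_541L. At E14.5 the smooth muscle probe sets chosen by name, apart from that of Myl9, lay between 0.865 and 1.28 in KO_540C. Myl9 was at 2.19, 1.38, 1.22 and 2.36 in KO_540C, KO_540G, KO_615A and KO_615B, against 0.983 in WT_522B and 1.02 in WT_522C. Named after its values were seen, a further probe set of Mylk, the myosin light chain kinase, was at 2.38, 1.40, 1.37 and 2.11 in the same KO pancreata, against 0.986 in WT_522B and 1.01 in WT_522C. Over the 12 arrays the log2 ratios correlated with those of Myh8 with r = 0.02 for Actg2, 0.58 for Myl9 and 0.77 for this Mylk probe set, while the Mylk probe set chosen by name had -0.14. At E16.5 the median log2 difference of the 14 was 0.22, and 6 reached 0.3 or more, against 11% of all probe sets. All 4 KO pancreata exceeded both wildtype pancreata for 5 of the 14, against 14.5% of all probe sets. They lay below both for 1, against 11.1%. Tagln had a log2 difference of 1.04, which did not pass the limit (limma, adjusted p = 0.0522). The small heat shock protein gene Hspb6 was the only one of the 14 to pass the limit at E16.5, and it fell. It was at 0.376, 0.358, 0.393 and 0.536 in KO_541J, KO_541L, KO_591C and KO_591D, against 1.15 in WT_622A and 0.850 in WT_628G. Also chosen after its values were seen, a further Acta2 probe set was at 2.88, 3.69, 2.40 and 3.70 in the KO pancreata of E14.5, against 1.34 in WT_522B and 0.665 in WT_522C, with r = 0.70 to Myh8, while the 2 others of that gene lay between 0.944 and 1.64 there.

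The 9 measured cardiac muscle genes had a median of 0.01 at E14.5 and one of 0.004 at E16.5, and their differences ran from -0.07 to 0.17. At E16.5, 0 passed the limit in limma, against 2.62% of all probe sets, and 0 had an unadjusted p under 0.05, against 16.6%. Of 12 genes of cartilage and bone, 0 had a log2 difference of 0.3 or more on either day, and the cartilage collagen gene Col9a1 had the lowest value, -1.71 at E14.5. The other Col9a1 probe set was at -0.06 that day, and the cartilage gene Acan was at -0.64. For 2 of the 12 genes all 4 KO pancreata lay below both wildtype pancreata at E14.5, against 8.06% of all probe sets. In the lists of gut and stomach epithelium, spleen and lymphoid tissue, and adipose tissue and skin, 11, 7 and 7 genes were measured. Of these, 2 passed the limit at E16.5, against 2.62% of all probe sets. Both were lower in KO, against 1.82% of all probe sets past the limit and lower. They were Vil1, the brush border villin, with a log2 difference of -1.23, and Tff2, the stomach trefoil factor, with -0.67. At E14.5 the widest differences in these lists were those of Sox2 and Trp63. Sox2, a transcription factor gene of the foregut and stomach, was at 2.30, 1.21, 1.20 and 1.59 in KO_540C, KO_540G, KO_615A and KO_615B, against 1.02 in WT_522B and 0.981 in WT_522C, and its log2 ratios correlated with those of Myh8 over the 12 arrays with r = 0.66. Trp63, a gene of stratified epithelia, was lower at 0.598, 0.490, 0.768 and 0.448 in the same KO pancreata, against 1.02 in WT_522B and 0.983 in WT_522C. Neither passed the limit at E16.5, with log2 differences of 0.53 for Sox2 and -0.26 for Trp63 (limma, adjusted p of 0.416 and 0.664). These values stand beside Myh8, and what part other tissue had in its ratios was not tested.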

How the data were processed

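RNA of 12 pancreata was amplified in 2 rounds by the authors, hybridised to 1 array each and summarised with RMA in GeneSpring. The authors deposited each probe set as a linear ratio, relative to both wildtype arrays of its day averaged, and the 2 wildtype values sum to 2 within 3e-07 on every probe set. Arrays were not normalized again, since raw arrays were not used here.

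From the 45101 probe sets, 64 controls were left out. Symbols came from the platform annotation (34945 probe sets with 1 symbol, 932 with several, 9160 with none), coordinates and promoters from RefSeq on GRCm38.p6. Log2 ratios were fitted as 4 groups with limma 3.58.1 in R 4.3.3. KO was tested against wildtype at E16.5, with p-values adjusted by Benjamini and Hochberg over 45037 probe sets and a limit of 0.05. E14.5 was not tested, because that contrast chose the genes. The code was tested on simulated data. For listed genes, 1 probe set was taken by its name (_at first, then _a_at, then _s_at or _x_at, lowest number). Named are the 10 genes, the cluster genes and the defining muscle markers Myod1, Myf5, Ckm, Ttn and Chrna1. Also named are up to 3 genes per list and day with the largest differences, those past the limit, and the 6 genes of highest correlation. The members and the lists were chosen with earlier results of these data known. Alternatives were quantile normalization, median centring, array weights, trended or robust variances and each day alone. Others were the number in array names as a random block (statmod 1.5.0), the methods' t-test without the paper's filter by ratio, and leaving out each array. The number of arrays limits the precision. Figures were drawn with matplotlib 3.10.9.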

Additional observations from a re-analysis of the deposited data

Results flagged for a closer look

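A single KO pancreas stood far from the other 3 of its group in 2 of the 10 sets of 4 KO values examined at E16.5 on the ratio scale. Chance marks about 1 in 20 such sets, and E14.5 was not examined in this way. KO_541L, at a Myh8 ratio of 5.34, was separated from the nearest KO pancreas by 0.852 of the group's range, and this gap did not pass the critical value of 0.829 on the log2 scale. Tnnt3 in KO_591D at E16.5, at a ratio of 1.20, was separated by 0.867 of the range on the ratio scale and by 0.859 on the log2 scale, although its 4 KO values span only 1.06 to 1.20.

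For 2 genes every KO pancreas lay above the wildtype mean at E14.5 and below it at E16.5, and the difference between the days was not tested. They were Actc1, with a log2 difference of -0.47 at E16.5 against 0.25 at E14.5, although the E16.5 value was 0.30 without WT_622A, and Tnnc2, with -0.53 at E16.5 against 0.06 at E14.5.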

How the results depend on the processing

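With 2 wildtype pancreata a day whose values sum to 2, each comparison rests on few animals, and ratios carry no depth or signal over background. At E16.5 the count of genes past the limit, 0, became 1 with array weights (Myl1), and ranged from 0 to 1 when single arrays were left out. The E16.5 median of the 10 genes ranged from -0.32 to 0.30 when single arrays were left out. The E14.5 median ranged from 0.17 to 0.25, and the E14.5 difference of Myh8 from 2.55 to 3.50, when single arrays were left out, and neither changed direction. At E16.5 direction turned only for 4 genes that had not passed: leaving out single arrays gave -0.76 to 0.29 for Myh3, -0.15 to 0.12 for Acta1, -1.24 to 0.30 for Actc1 and -0.54 to 0.42 for Tnnt1, and Tnnt1 was 0.057 with array weights. Without KO_591C, Myh3 was 0.08, Acta1 0.08 and Tnnt1 0.05, without KO_591D Tnnt1 was 0.10, and the cause was not tested. The counts of genes with all KO above both wildtype pancreata, an alternative chosen after seeing the data, became 1 on each day after quantile normalization, and 2 at E14.5 after median centring, where the deposited ratios gave 5 for E14.5 and 3 for E16.5.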
